A study of Mus musculus with 12 samples.

Results

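Krueppel-like factors are transcription factors that bind CACCC and GC-rich boxes through a block of zinc fingers at the end of the protein. Results for 8 of their genes, Klf2, Klf3, Klf4, Klf6, Klf7, Klf9, Klf10 and Klf13, are described here. They were taken by symbol from a table of 25919 genes, and all 8 were found in it and were among the 9852 genes with enough counts to be tested. Poly(A) RNA of C57BL/6 mouse liver samples, from animals labelled as 7 weeks old, was sequenced from the 3' end. The comparison is between 4 libraries labelled CD40 at day 2 and 2 libraries labelled Kupffer cells at day 0. The labels name no treatment, no event from which days are counted, no sort and no animal of origin, so the libraries may be technical repeats in part, and a p-value speaks of their spread alone. Cell label and day change together, and their parts in a difference cannot be told apart.

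Klf2 and Klf4 are best known from endothelium, where shear stress acts through the kinase ERK5 and MEF2 factors to raise Klf2, and where both keep the vessel wall quiescent. Klf2 also keeps T cells and monocytes at rest, Klf4 is needed for monocyte differentiation, and Klf6 is linked to inflammatory activation of macrophages. Klf3 is a repressor that recruits CtBP, Klf9 is induced by glucocorticoids, Klf10 was found as an early gene of TGF-beta, and Klf13 as a factor of Ccl5 expression in T cells.

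Kupffer cells are the resident macrophages of the liver, and CD40 is a receptor of antigen-presenting cells. The 6 libraries held between 688498 and 2271228 counts, and CD40 day 2 c and d were deeper than a and b. The letters name columns in the order of the table, which gives no replicate numbers. Columns of the other 2 groups in the series were not read by gene, since the table is sorted on the counts of Kupffer day 0 a and yet 2 of those columns also fall along it, with 1 step up each, so that their values may stand apart from the gene names. Kupffer markers took 0.653% to 0.694% of counts in Kupffer day 0 and 0.0788% to 0.3% in CD40 day 2, there mostly from C1qa, C1qb and C1qc. Classical monocyte markers took 0.152% to 0.176% and 1.63% to 2.21%, the latter mostly from a few genes of the list. Of its 10 genes, 8 were higher in CD40 day 2 and 2 were not called, against 23.2% higher among all genes tested. Liver sinusoidal endothelial markers took 1.89% to 1.91% in Kupffer day 0, more than the Kupffer markers did, and 0.0435% to 0.0983% in CD40 day 2. Of these 13 endothelial markers, 13 were lower in CD40 day 2, against 30.2% of all genes tested, and 0 were at 0 counts in the whole group. In bulk samples fewer cells of a type and less RNA per cell cannot be told apart.

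The regions before the start of 4 of the genes are shown because Klf2, Klf4 and Klf9 are among those with the large falls described next and Klf6 went the other way. The window of Klf7 lies within its annotated gene and is not shown. RefSeq (GRCm38.p6) gave an entry for 7 of the 8 genes. The 250 bases before the RefSeq start were searched on both strands, and bases that the GENCODE annotation counts as part of the gene are not shown. Capitals mark 3 motifs on either strand: the box CACCC, the GC box GGGCGG, and a loose search pattern for the MEF2 box. That pattern is CTA, then any 4 bases, then TAG, and reads the same on both strands. The first 2 motifs may share bases.
Klf2 (chr8:72318812-72319032, plus strand): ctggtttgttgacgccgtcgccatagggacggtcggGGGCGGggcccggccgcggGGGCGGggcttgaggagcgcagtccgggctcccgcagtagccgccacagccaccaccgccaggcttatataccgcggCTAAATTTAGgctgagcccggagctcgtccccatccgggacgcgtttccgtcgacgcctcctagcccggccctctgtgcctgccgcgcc
Klf4 (chr4:55532476-55532725, minus strand): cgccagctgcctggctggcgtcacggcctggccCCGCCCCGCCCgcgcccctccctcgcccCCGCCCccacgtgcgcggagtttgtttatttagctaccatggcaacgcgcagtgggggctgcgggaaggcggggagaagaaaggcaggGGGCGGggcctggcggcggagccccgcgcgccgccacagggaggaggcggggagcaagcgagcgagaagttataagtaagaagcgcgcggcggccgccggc
Klf9 (chr19:23140976-23141225, plus strand): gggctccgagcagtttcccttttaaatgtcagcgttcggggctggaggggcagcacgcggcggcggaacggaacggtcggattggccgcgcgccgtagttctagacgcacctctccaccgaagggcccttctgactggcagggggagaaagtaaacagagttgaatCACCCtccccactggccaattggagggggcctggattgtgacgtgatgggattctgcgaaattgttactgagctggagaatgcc
Klf6 (chr13:5861239-5861481, plus strand): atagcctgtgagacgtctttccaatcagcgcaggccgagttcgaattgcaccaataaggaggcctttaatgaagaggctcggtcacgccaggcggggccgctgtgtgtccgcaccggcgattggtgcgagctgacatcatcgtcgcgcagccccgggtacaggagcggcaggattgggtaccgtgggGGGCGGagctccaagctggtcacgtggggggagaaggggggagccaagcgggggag
Klf2 was the only one of the 7 entries with a match to the MEF2 search pattern, CTAAATTTAG. It lies 118 to 109 bases before the RefSeq start at 72319062, which is past the end of the stretch shown. Among 32851 promoter windows of the same length, 3.2% held a match to this loose pattern. GGGCGG was found in 6 of the 7 windows, all but that of Klf9, and in 32.7% of all windows. CACCC was found in 5 of the 7, all but Klf4 and Klf6, and in 52% of all windows. The CACCC match of Klf2 and all matches of Klf7 lie within the annotated gene and are not shown. These windows were rich in G and C, with 59.2% to 78.4% against a median of 52.4%. A match is a run of letters and not a measured site.

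Most of the family stood lower in CD40 day 2. By edgeR's quasi-likelihood test with an adjusted p under 0.05 over all genes, 7 of the 8 genes were lower and 1, Klf6, was higher. Among all genes tested 53.4% were called, 30.2% lower and 23.2% higher, and the median log2 fold change was -0.1 against -1.68 for the 8 genes. The genes fell into 2 sets by size. Klf2, Klf4, Klf7 and Klf9 were 6.21-fold to 35-fold lower, and Klf3, Klf10 and Klf13 were 1.58-fold to 1.64-fold lower. No library of one group overlapped the other group for any of the 8 genes, which was also so for 66.6% of all genes. With 2 libraries against 4, an exact permutation test has 15 splits and cannot give a p below 0.067, so the calls rest on the spread pooled over all genes. Without Kupffer day 0 a, 4 genes were lower and 0 higher, and the same counts were found without Kupffer day 0 b. DESeq2 called 4 lower and 1 higher.

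**Figure D1:**
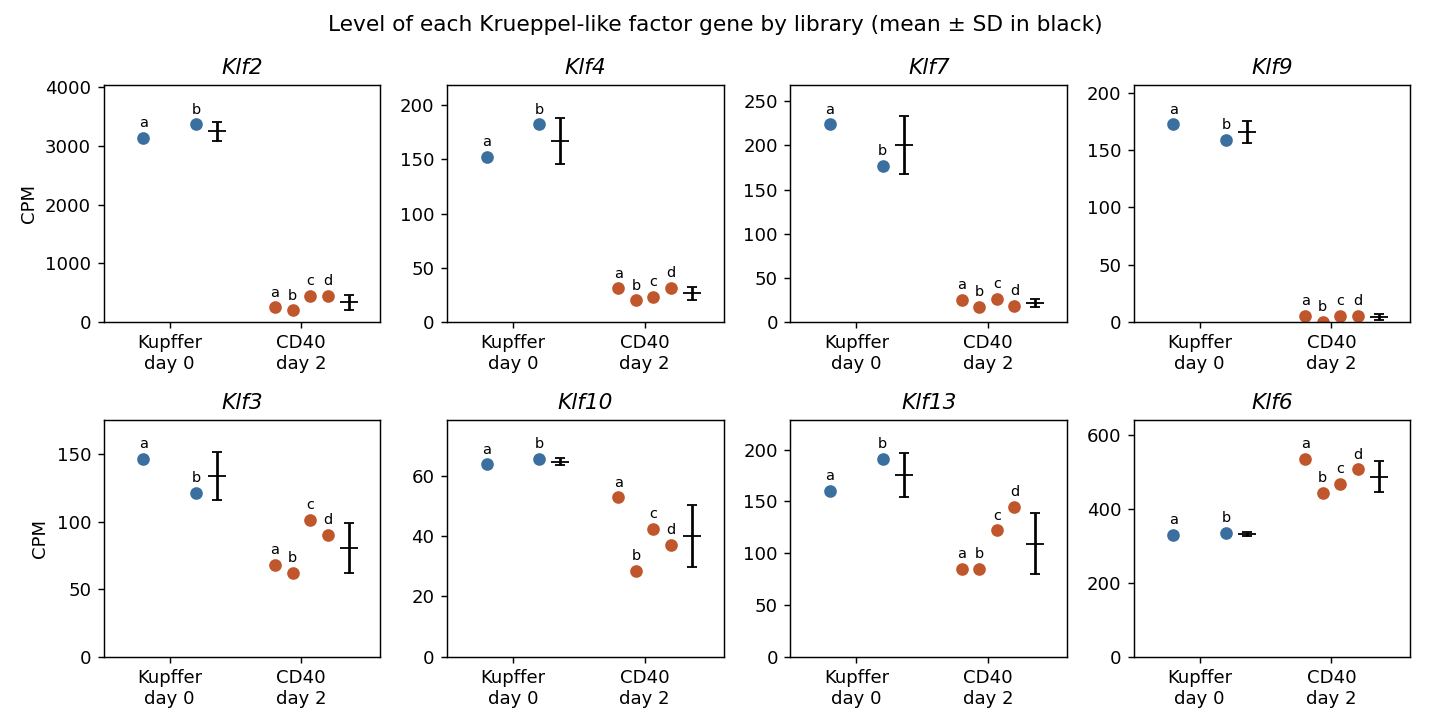
Level of each gene in CPM (vertical axis, from 0, a scale of its own in each panel) in the 2 Kupffer day 0 libraries (blue) and the 4 CD40 day 2 libraries (orange), with the mean ± SD of each group in black. Klf2, Klf4, Klf7 and Klf9 lie near the axis in CD40 day 2, Klf3, Klf10 and Klf13 lie closer to the Kupffer level, and Klf6 lies above it.

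Klf2 (ENSMUSG00000055148.7, chromosome 8, 72319033 to 72321656, plus strand) was at 3129 and 3366 CPM in Kupffer day 0 a and b. CPM is the count scaled to the library total after TMM scaling. In CD40 day 2 a to d it was at 246, 194, 447 and 447 CPM. All 4 CD40 libraries lay far below both Kupffer libraries, and c and d lay above a and b. The means were 333 ± 133 CPM (SD, n = 4) and 3247 ± 168 CPM (SD, n = 2), a log2 fold change of -3.27 ± 0.31 (SE, edgeR adjusted p = 1.89e-05). Of all genes tested, 9.03% had a lower fold change. Behind these levels stood 5449 and 2417 counts in Kupffer day 0 and 137 to 981 in CD40 day 2. Klf2 made up 71.5% and 73.2% of the counts of the 8 genes in Kupffer day 0 and 22.9% to 36.2% in CD40 day 2. All 8 together took 0.473% and 0.479% of the counts in Kupffer day 0 and 0.0825% to 0.121% in CD40 day 2.

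Klf4 (ENSMUSG00000003032.8, chromosome 4, 55527143 to 55532466, minus strand) was at 152 and 182 CPM in Kupffer day 0. It was at 31, 19.8, 23.2 and 31.6 CPM in CD40 day 2 a to d. The 4 CD40 libraries were close together, with no split between a, b and c, d as for Klf2. The log2 fold change was -2.64 ± 0.21 (SE, edgeR adjusted p = 7.21e-06).

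Klf9 (ENSMUSG00000033863.2, chromosome 19, 23141226 to 23168134, plus strand) had the largest fall of the 8 genes. It was at 172 and 159 CPM in Kupffer day 0, from 300 and 114 counts. CD40 day 2 a to d held 6, 0, 12 and 9 counts, or 5.46, 0, 5.46 and 5.36 CPM. Library b, the shallowest of the 4, had no count, which allows a level of up to 4.24 CPM (3 counts, counting error only), while its exact 95% counting interval reaches 5.22 CPM. The other 3 libraries were alike, with exact 95% counting intervals of 2 to 11.9, 2.82 to 9.54 and 2.45 to 10.2 CPM. The log2 fold change was -5.13 ± 0.34 (SE, edgeR adjusted p = 2.4e-06), and 3.42% of all genes had a lower one.

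Klf7 (ENSMUSG00000025959.13, chromosome 1, 64029447 to 64122282, minus strand), a factor known from neuronal and fat cell development, was at 224 and 177 CPM in Kupffer day 0. It was at 24.6, 17, 26.4 and 18.5 CPM in CD40 day 2 a to d. The highest CD40 library lay far below the lower Kupffer library. The log2 fold change was -3.19 ± 0.21 (SE, edgeR adjusted p = 2.57e-06). Klf7 overlaps Gm26649 and Gm13748 on the other strand, and Mir6899, and Klf9 overlaps Mir1192. Whether counting used the strand is not given in the sources used here, so reads of overlapping genes may not be told apart.

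The 3 smaller falls were less firm. Klf3 (ENSMUSG00000029178.14, chromosome 5, 64803388 to 64832901, plus strand) was at 146 and 121 CPM in Kupffer day 0 and at 68.3, 62.2, 102 and 90.5 CPM in CD40 day 2. The gap between the groups was smaller than the range of the 4 CD40 libraries. The log2 fold change was -0.72 ± 0.22 (SE, edgeR adjusted p = 0.0213). The call was lost without Kupffer day 0 a (adjusted p = 0.2), without Kupffer day 0 b (0.0533) and with DESeq2 (0.0518), within a range of 0.00847 to 0.2 over the alternatives. It overlaps Gm20033 on the other strand and C230096K16Rik on its own.

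Klf13 (ENSMUSG00000052040.10, chromosome 7, 63886351 to 63938915, minus strand) was at 160 and 191 CPM in Kupffer day 0 and at 84.7, 84.9, 122 and 145 CPM in CD40 day 2. As for Klf2 and Klf3, libraries c and d were the upper 2 of the 4. The log2 fold change was -0.66 ± 0.24 (SE, edgeR adjusted p = 0.0399). In 7 of 13 alternatives it was not called, among them each fit without Kupffer day 0 a (adjusted p = 0.101), Kupffer day 0 b (0.223), CD40 day 2 a (0.0808), b (0.0802) or c (0.0543), with a range of 0.011 to 0.223 over all. Klf13 overlaps Gm27252 and E030018B13Rik, both on the other strand.

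Klf10 (ENSMUSG00000037465.10, chromosome 15, 38291463 to 38300706, minus strand) was at 63.7 and 65.5 CPM in Kupffer day 0 and at 52.8, 28.3, 42.3 and 36.9 CPM in CD40 day 2. Here library a was the highest of the 4 and b the lowest, an order unlike that of Klf2, Klf3 and Klf13. The log2 fold change was -0.67 ± 0.24 (SE, edgeR adjusted p = 0.0385). In 8 of 13 alternatives it was not called, among them the fits without Kupffer day 0 a (adjusted p = 0.161), Kupffer day 0 b (0.144), CD40 day 2 b (0.0643), c (0.0667) or d (0.0687), with a range of 0.0126 to 0.161 over all.

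Klf6 (ENSMUSG00000000078.7, chromosome 13, 5861482 to 5870394, plus strand) was the only one of the 8 genes that rose. It was at 328 and 334 CPM in Kupffer day 0 and at 533, 441, 466 and 506 CPM in CD40 day 2. Every CD40 library lay above both Kupffer libraries, which were nearly equal. The rise was 1.47-fold, a log2 fold change of 0.56 ± 0.16 (SE, edgeR adjusted p = 0.0131). It was not called without Kupffer day 0 a (adjusted p = 0.0998) or Kupffer day 0 b (0.077), within a range of 0.00328 to 0.0998. Its value kept its sign in all 13 alternatives, from 0.39 to 0.67. As a share of the counts of the 8 genes, Klf6 went from 7.27% and 7.49% in Kupffer day 0 to between 37.8% and 52.1% in CD40 day 2. This share also depends on the fall of Klf2, which made up 71.5% and 73.2% in Kupffer day 0, and does not measure the rise of Klf6 alone.

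**Figure D2:**
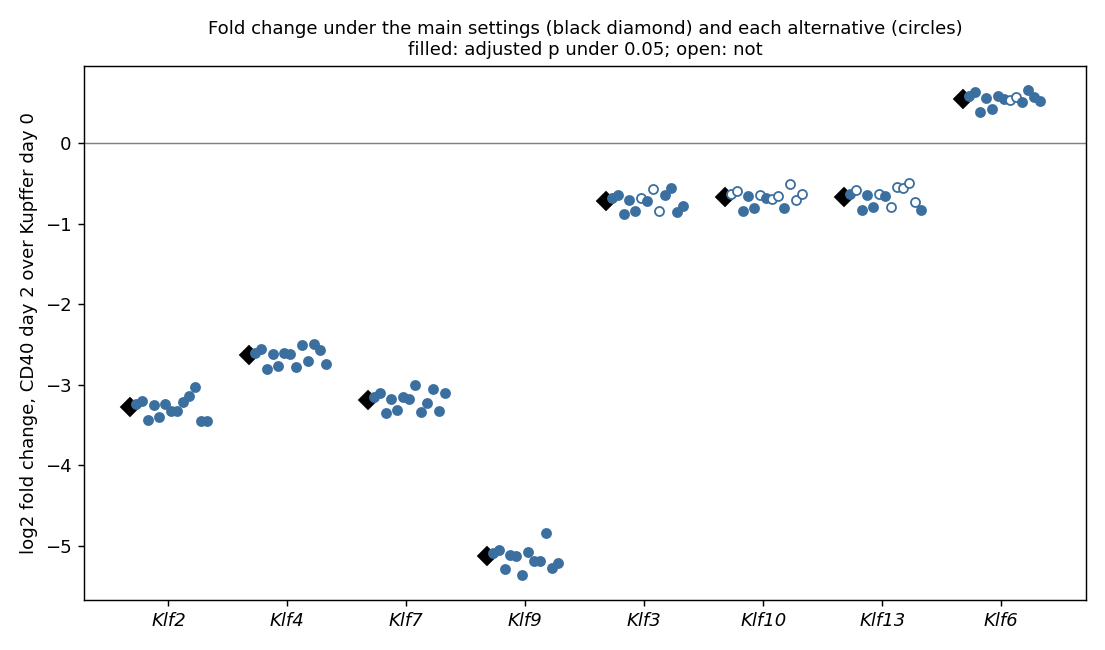
Log2 fold change (vertical axis) of each gene under the main settings (black diamond) and each alternative (circles, filled where the adjusted p was under 0.05). Klf2, Klf4, Klf7 and Klf9 stayed called in each alternative that tested them, while Klf10 and Klf13 have 8 and 7 open circles, Klf3 has 3 and Klf6 has 2.

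The genes were also set against each other within each library, which removes the scaling between libraries. The log2 ratio of Klf2 to Klf6 (log2 CPM, prior count 2) was 3.25 and 3.33 in Kupffer day 0, and -1.11, -1.18, -0.06 and -0.18 in CD40 day 2 a to d. It was above 0 in both Kupffer libraries and below 0 in all 4 CD40 libraries. The difference was -3.92 (exact two-sided permutation p = 0.067, the smallest possible, adjusted 0.13 over 4 pairs). The ratio of Klf4 to Klf6 moved by -3.17, from -1.1 and -0.87 to between -4.38 and -3.94, with the same exact p of 0.067 (adjusted 0.13). The ratio of Klf2 to Klf4 was 4.35 and 4.19 in Kupffer day 0 and 2.93, 3.2, 4.18 and 3.76 in CD40 day 2. CD40 day 2 c came close to the lower Kupffer value, and the difference was -0.75 (exact permutation p = 0.13, adjusted 0.17). With 15 splits no pair could reach a p under 0.05, so this test decides nothing for any of them. The ratio of Klf3 to Klf13 overlapped between the groups, with means of -0.39 ± 0.37 (SD, n = 2) and -0.42 ± 0.18 (SD, n = 4, exact permutation p = 0.93). Without Kupffer day 0 a this difference of -0.03 became 0.23, and without CD40 day 2 d it became 0.05.

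**Figure D3:**
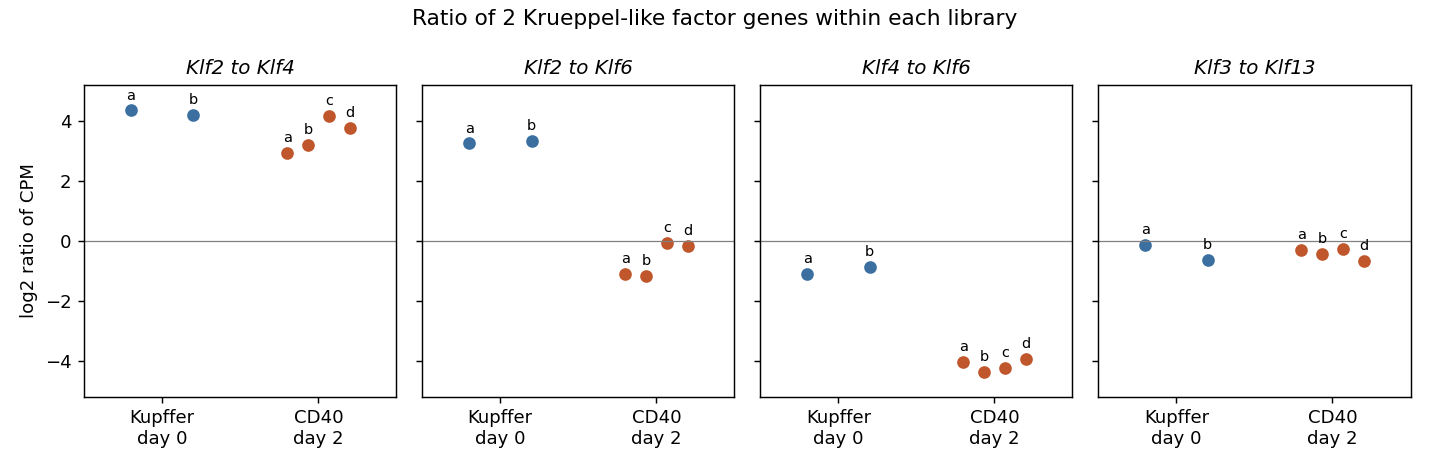
Log2 ratio of the CPM of 2 genes (vertical axis) within each library, for the 2 Kupffer day 0 libraries (blue) and the 4 CD40 day 2 libraries (orange), with a line at a ratio of 1. The ratios to Klf6 are apart between the groups, Klf2 to Klf4 comes close to the Kupffer level in CD40 day 2 c, and Klf3 to Klf13 overlaps.

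Within CD40 day 2 the levels of the genes varied between libraries, and whether they moved together was not tested. As a percent of the Kupffer mean, Klf2 stood at 7.57, 5.97, 13.7 and 13.8% in libraries a to d. Klf9 stood at 3.3, 0, 3.3 and 3.24%, and Klf7 at 12.3, 8.47, 13.2 and 9.22%. For both Klf9 and Klf7 the counting intervals of libraries a to d overlapped. The share of counts of the endothelial markers stood at 5.17, 2.29, 3.25 and 3.44% of its Kupffer value, highest in library a, where Klf2 was below its level in c and d. The share of the stellate markers stood at 1.4% to 2.96%. Of 10 such genes 8 were tested and lower, against 30.2% lower among all genes tested. Further, 1 was at 0 counts in all of CD40 day 2. Kupffer markers stood at 27, 11.7, 29.5 and 44.5%. Most of what remained came from C1qa, C1qb and C1qc. In CD40 day 2 a to d C1qb had 1463, 343, 3024 and 3504 counts, and Clec4f had 21, 15, 32 and 23. In that list Clec4f, Timd4, Vsig4, Cd5l, Folr2, Clec1b, Fcna and C1qa were lower. C1qb was at 1322 CPM in Kupffer day 0 and 1320 CPM in CD40 day 2 on average and was not called, nor were C1qc and Marco. Library b was lowest for these 3 marker lists as it was for Klf2, Klf3, Klf4, Klf6, Klf7, Klf9 and Klf10, and it was also the highest for dendritic cell markers (0.0704% of counts against 0.0156% to 0.03% in the other 3). The part of these cell types, and of depth, in the Krueppel-like factor results was not tested.

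**Figure D4:**
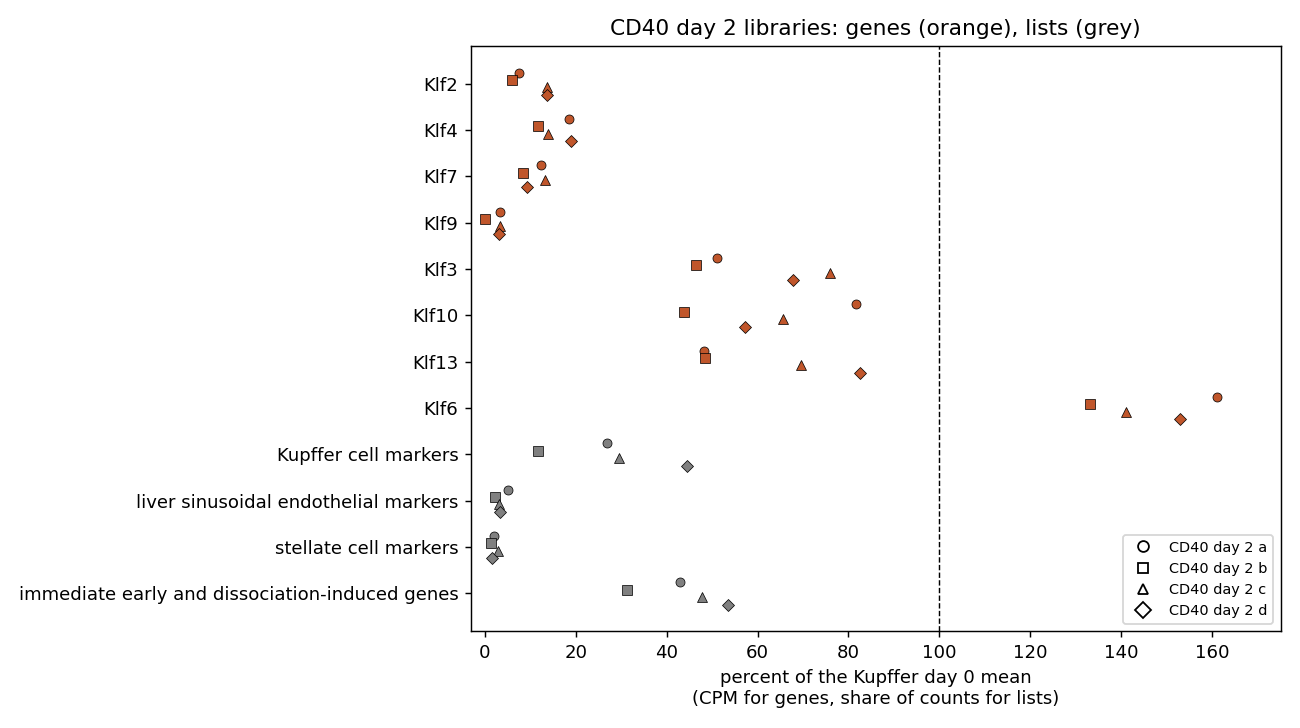
Level of each gene (orange, CPM) and summed share of 4 gene lists (grey, share of counts) in each CD40 day 2 library, as a percent of the Kupffer day 0 mean (horizontal axis, dashed line at 100). Endothelial and stellate markers lie at or under 5.17%, near Klf9, whereas Klf6 lies between 133% and 161%.

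Most other family members in the table had few counts. Of 18 further Klf and Sp genes listed, 12 were in the table and 4 were tested. Klf11, a close relative of Klf10, was at 9.76 and 27.9 CPM in Kupffer day 0 and at 9.1, 7.07, 6.37 and 5.36 CPM in CD40 day 2. It passed as lower (log2 fold change -1.31 ± 0.48 SE, edgeR adjusted p = 0.0411), but Kupffer day 0 a was close to the CD40 values. Without Kupffer day 0 b the adjusted p was 0.46, and the call was lost in 7 of 13 alternatives, also without CD40 day 2 b (0.059), c (0.084) or d (0.08). Sp1, Sp2 and Sp3, general factors that bind GC boxes, did not pass, with 95% intervals of the log2 fold change of -1.12 to 0.16, -0.12 to 1.02 and -0.46 to 0.72. Klf15, a metabolic regulator of liver, had 14 counts in Kupffer day 0 and 1 in CD40 day 2. Its rate was thus 32.3 times higher in Kupffer day 0 (counting interval 4.92 to 1370). Klf12 had 5 counts against 0. With 3 counts over the CD40 group as the floor it was 3.85-fold lower, a value that leaves out the counting error of the 5. Klf16 had 18 and 2 counts in the Kupffer libraries and 2 to 5 in each CD40 library. Klf1, Klf5, Klf8 and Sp8 had at most 4 counts in all, and Sp4 had 12 in Kupffer day 0 and 26 in CD40 day 2.

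**Figure D5:**
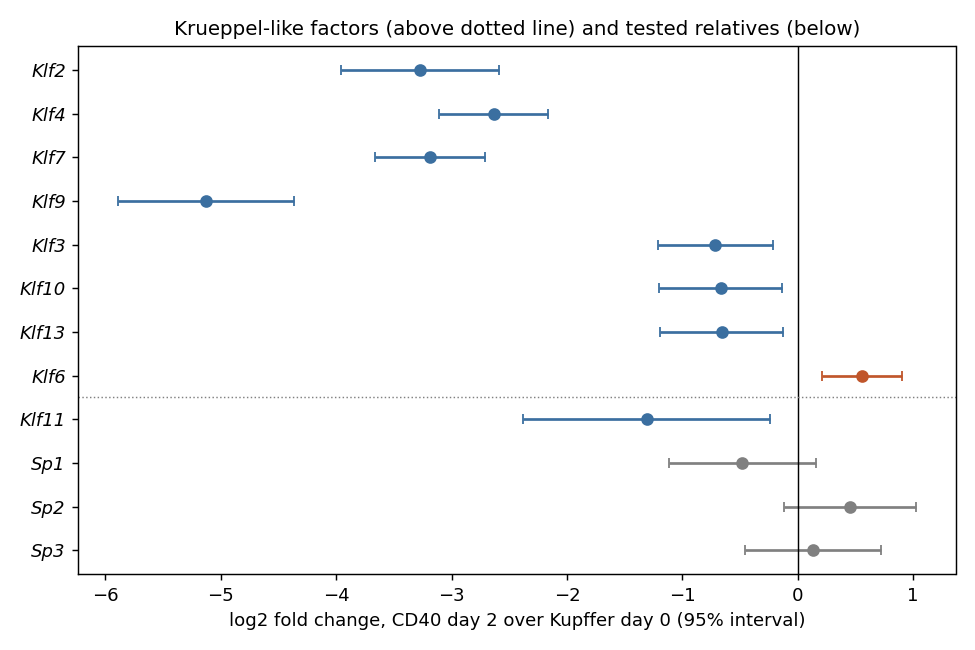
Log2 fold change of CD40 day 2 over Kupffer day 0 (horizontal axis) with its 95% interval for the 8 genes and, below the dotted line, the 4 tested relatives, with lower calls in blue, higher in orange and uncalled in grey. Klf9 lies at -5.13, Klf2, Klf4 and Klf7 between -3.27 and -2.64, and Klf6 is alone to the right at 0.56 among the called genes.

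Of the genes that act upstream of Klf2 and Klf4 in endothelium, 4 of 7 tested were lower and 0 higher (median log2 fold change -0.95 against -0.1 for all genes). Counts of this and the following lists stand beside 30.2% lower and 23.2% higher among all genes tested. Mef2c, a transcription factor of the MEF2 family, was at 99.9 ± 21.1 CPM in Kupffer day 0 (SD, n = 2) and 12.1 ± 5.71 in CD40 day 2 (SD, n = 4), with a log2 fold change of -2.95 (edgeR adjusted p = 4.28e-05). Mef2a was at 142 ± 20.8 and 55.5 ± 15.1 CPM (-1.35, adjusted p = 0.00109). The list had 2 lower genes when Kupffer day 0 a was left out. Mapk7, which encodes ERK5, was at 30.5 and 32.8 CPM and did not pass (log2 fold change 0.09, adjusted p = 0.796).

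Genes known as targets of KLF2 or KLF4 in endothelium were lower in 6 of 7 cases and higher in 1, with a median log2 fold change of -4.69. Tek, an endothelial receptor kinase that is also on the list of endothelial markers, fell from 195 ± 23 to 3.66 ± 1.96 CPM (-5.74, edgeR adjusted p = 7.45e-07). Aqp1, a water channel, fell from 1931 ± 119 to 63.8 ± 32.5 CPM (-4.94, adjusted p = 3.13e-06). The gene that rose was Edn1, which encodes endothelin-1 and is known to be repressed by KLF2. It was at 5.33 ± 4.29 CPM in Kupffer day 0 and 20.1 ± 4.62 in CD40 day 2 (2.25, adjusted p = 0.00413). It was not called without Kupffer day 0 a (adjusted p = 0.1, range 2.8e-05 to 0.1). The share of counts of this list stood at 2.41% to 6.21% of its Kupffer value, close to that of the endothelial markers.

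Of 6 target genes known from lymphocytes, 2 were higher and 2 lower, near the shares of all genes (23.2% and 30.2%), and 1 was lower when Kupffer day 0 a, Kupffer day 0 b or CD40 day 2 d was left out. Itgb7, an integrin chain, rose from 27.3 ± 12.6 to 125 ± 16.7 CPM. S1pr1, a receptor that guides cells out of lymphoid organs and is on both target lists, fell from 133 ± 16.8 to 8.99 ± 9.46 CPM. S1pr4 fell from 13.4 ± 1.29 to 5.83 ± 2.28 CPM, and was not called without Kupffer day 0 a (edgeR adjusted p = 0.23), without Kupffer day 0 b (0.081), without CD40 day 2 d (0.05) or with DESeq2 (0.11), in a range of 0.016 to 0.23.

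Co-regulators and ubiquitin ligases of the KLF proteins were lower in 7 of 15 cases and higher in 2 (median log2 fold change -0.75). Among all genes 30.2% were lower and 23.2% higher, and 2 of the list were lower when Kupffer day 0 a was left out. Wwp1, a ubiquitin ligase that acts on KLF2, fell from 67.6 ± 14.8 to 26.4 ± 7.19 CPM (log2 fold change -1.32). Without Kupffer day 0 a its value was -1.06 and the call was lost (edgeR adjusted p = 0.06, range 8.2e-06 to 0.06). Ncor1, a co-repressor, fell from 262 ± 29.4 to 148 ± 20.1 CPM. Sap30, a co-repressor subunit, rose from 12 ± 0.74 to 53.3 ± 11.8 CPM, and Sin3b, a co-repressor scaffold, from 110 ± 15.9 to 216 ± 19.1 CPM.

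Of the listed genes of the TGF-beta pathway, which induces Klf10 and Klf11, 8 of 15 tested were lower and 3 higher (median log2 fold change -1.24). The list holds inhibitors of the pathway too, so these counts do not measure its activity. Eng, an endothelial co-receptor, fell from 942 ± 27.1 to 28.4 ± 15.6 CPM, and Smad6, an inhibitory Smad, from 100 ± 27.7 to 7.25 ± 2.34 CPM. Tgif1, a co-repressor of Smads, rose from 53.7 ± 14.9 to 221 ± 32.8 CPM. Smad2 rose from 31 ± 6.46 to 61.8 ± 10.1 CPM, a call lost without Kupffer day 0 b (edgeR adjusted p = 0.073, range 0.0041 to 0.073), without which 1 gene of the list was higher.

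A list of genes induced by glucocorticoids, as Klf9 is, and of the receptor gene Nr3c1 was lower in 5 of 7 cases and higher in 0 (median log2 fold change -1.08). Nr3c1, which encodes the glucocorticoid receptor and is not counted as an induced gene, was among the lower genes. Its own value was that median. Sgk1, a kinase, fell from 1068 ± 15.8 to 90.5 ± 27.1 CPM, and Cebpd, a transcription factor, from 415 ± 80.5 to 48.1 ± 13.5 CPM. Without Kupffer day 0 b, 1 gene of this list was higher. Dusp1, a phosphatase on this list, is also among the early response genes.

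Klf2, Klf4 and Klf6 are themselves early response genes, and genes of that kind also rise when tissue is dissociated. Of 16 such genes tested, 10 were lower and 1 higher (median log2 fold change -0.66), and 4 were lower without Kupffer day 0 b. Fosb and Jun, of the AP-1 complex, fell from 273 ± 115 to 28.3 ± 11.9 CPM and from 2717 ± 292 to 322 ± 154 CPM. Nr4a1, a nuclear receptor of non-classical monocytes, went from 153 ± 35.1 to 301 ± 77.6 CPM (log2 fold change 0.99). Without Kupffer day 0 a its value was 0.76 and the call was lost (edgeR adjusted p = 0.15, range 6.8e-05 to 0.15). The list took 2.21% and 2.77% of the counts in Kupffer day 0 and 1.07, 0.783, 1.19 and 1.33% in CD40 day 2 a to d. Libraries c and d were the upper 2 of the 4, as for Klf2, and b was the lowest. The part of these genes in the Klf2 values was not tested.

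For each of the 8 genes, the 2 genes of most similar profile over the 6 libraries were sought among 5708 genes with a mean of at least 20 CPM. Likeness is the root mean square distance of log2 CPM, each gene centred on its mean, and it mostly follows the difference between the groups. Klf2 was closest to Lilra5, a myeloid receptor gene, at 0.054, and next to Sbf2 at 0.19. Lilra5 reached the minimum through Kupffer day 0 (mean 63.6 CPM) and had 4, 2, 18 and 13 counts in CD40 day 2 a to d. Klf4 was closest to Aplp2 (0.096) and Wasl (0.14), Klf7 to Wipi1 (0.11) and Numb (0.15), and Klf9 to Lrrc32 (0.22) and Fkbp7 (0.23). Klf3 was closest to Hdac2 (0.079) and Fech (0.091), and Klf13 to Spns1 (0.068) and Nagk (0.092). Klf6 was closest to Phf10 (0.047) and Ifngr2 (0.061), and Klf10 to Arhgef3 (0.043) and Atp9b (0.055). Phf10, Arhgef3 and Atp9b were not called (edgeR adjusted p = 0.0535, 0.0702 and 0.069). Like Lilra5, other neighbours reached the minimum through Kupffer day 0. In CD40 day 2 the means of Sbf2, Wipi1, Lrrc32, Fkbp7 and Atp9b were 6.5, 8.13, 4.04, 3.62 and 18.3 CPM. Lrrc32 and Fkbp7 had 0 counts in CD40 day 2 b, as Klf9 had, so their likeness within CD40 day 2 rests on few counts.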

How the data were processed

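Per the labels' protocol, a sample barcode and a molecular identifier were added at reverse transcription and samples were pooled before amplification. The authors deposited raw counts, whole numbers per gene symbol. DESeq2 1.22.2 and the build GRCm38.p6 are named in the submitters' processing notes. What aligned the reads, which annotation was used and whether reads or molecular identifiers were counted is not given in the sources used here. In the 6 libraries used, 17 symbols turned into dates held 0.0846% to 0.151% of the counts.

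Counts of all genes in the 6 libraries were fitted with edgeR 4.0.16 (R 4.3.3, TMM, filterByExpr, quasi-likelihood test, two-sided, Benjamini-Hochberg over 9852 genes, threshold 0.05). The biological coefficient of variation was 20.4%. The 6 libraries held 688498 to 2271228 counts, and counting intervals cover counting error only. Groups came from column names. The members and lists were chosen with earlier results of these data known, so no list was tested as a set. Alternatives were 3 other scalings, 2 other filters, DESeq2 1.42.0, limma-voom (3.58.1) and leaving out each library. Named genes were the 8 members, tested Klf and Sp genes, the 2 lowest adjusted p in each direction of a pathway list, and the 2 nearest profiles of each called member; a gene of the lymphocyte target list that this rule names is not reported here. Marker lists also covered hepatocytes, dendritic cells, lymphocytes, neutrophils and blood cells. Positions are from GENCODE M21 (GRCm38).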

Additional observations from a re-analysis of the deposited data

Results flagged for a closer look

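Klf9 in CD40 day 2 b stood apart from the other 3 libraries of its group: the gap was 0.981 of the whole range of the 4 CPM values, above the 95% critical value of Dixon's test. The library had 0 counts of Klf9 and the others 6, 12 and 9. Chance alone takes about 1 of 20 groups of normal values past that critical value, a rate that need not hold for counts this low. The 8 genes and the 4 pair ratios were looked at. At the depth of this library a count of 0 allows up to 4.24 CPM (3 counts), and the exact 95% counting interval reaches 5.22 CPM.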

How the results depend on the processing

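Klf2 and Klf4 were called in all 13 alternatives, Klf7 too, and Klf9 in all 12 that tested it. No member changed sign in any alternative. No paired analysis was possible because the columns carry no replicate numbers. With DESeq2, 4 members were lower. Leaving out 1 library gave 4 to 6 members lower and 0 to 1 higher, and 1406 to 2551 genes higher and 1800 to 2963 lower in all, with the lowest of both gene counts without Kupffer day 0 a. A fit without a Kupffer library assumes that the remaining one varies like the CD40 libraries. The difference in the ratio of Klf3 to Klf13 ranged from -0.29 to 0.23 when 1 library was left out, and the cause was not tested. Sp3 went from 0.13 to -0.0396 with the library total only. The median log2 fold change of neutrophil markers was 0.05 (1 of 9 higher and 1 lower), -0.28 with a minimum of 10 counts in 4 libraries, and -0.94 to 0.36 when 1 library was left out, with 0 higher and 4 lower without Kupffer day 0 a, 0 lower without Kupffer day 0 b and 0 higher without CD40 day 2 c. The median of all genes lay between -0.27 (library total only) and -0.02 (upper quartile scaling), against -0.1. Depth limits Klf9 in CD40 day 2 b and the Klf and Sp genes that were not tested.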

Other observations

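Markers of other cell types gave these values, beside 30.2% lower and 23.2% higher among all genes tested. Hepatocyte markers were lower in 8 of 9 cases (median log2 fold change -2.92, and -1.76 without Kupffer day 0 b) and took 0.0714% and 0.185% of counts in Kupffer day 0 and 0.0117% to 0.0256% in CD40 day 2. Non-classical monocyte markers were higher in 6 of 7 cases and dendritic cell markers in 2 of 8, with 2 lower. The count of higher dendritic cell markers depended on single libraries, with 1 without Kupffer day 0 a, 4 without CD40 day 2 b or c, and 6 without CD40 day 2 d. T, NK and B cell markers took 0.0244% and 0.0246% of counts in Kupffer day 0 and 0.0231% to 0.0303% in CD40 day 2. Erythroid and platelet markers were highest in CD40 day 2 d, at 0.0747% of counts against 0.00717% to 0.0278% in the other 3.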
